A study of Homo sapiens with 8 samples.

Results

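Among 43693 cells of human neural cultures, 3631 were GABAergic neurons that carried RNA of the DLX genes and had no count for LHX6, LHX8 or NKX2-1. GABA is the main inhibitory transmitter of the forebrain, and GAD1 and GAD2 encode the enzymes that make it. A cell belonged to this group if it had a count of 1 or more for GAD1 or GAD2 and for at least 2 of DLX1, DLX2, DLX5, DLX6 and DLX6-AS1. It also had a count of 0 for LHX6, LHX8, NKX2-1 and the cell division genes MKI67 and TOP2A. These cells are called DLX neurons below. A count of 0 can also mean RNA that was present and missed.

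The cultures came from H1, an established line of human embryonic stem cells, and were grown flat (2-D) or as organoids (3-D), to describe their composition and their response to dopamine, cocaine and morphine. RNA was read by split-pool barcoding, in which fixed cells pass through rounds of splitting and pooling until each carries its own combination of barcodes. The 8 deposited samples are 8 portions of a single barcoded pool, so they are not groups. Groups were read from the cell names, which held 46 culture tags with an arrangement, in most cases a treatment, and a number.

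The 9 arrangements were 2DMono, 2DCocu, 3DMono, 3DFusi, 2DProto2Fjo, 2DProto3Wu, 2DProto4Nic, 3DProto1For and 3DProto2Xia. The names begin with 2D or 3D for the format, and the rest of each name is not spelt out in the labels. Treatments were written AcDop, AcCoc, AcMor and Vehic and fit dopamine, cocaine, morphine and untreated in the series text, with doses and times not given. The Proto arrangements carried no treatment. Pieces of a few organoids were pooled for each papain dissociation. Nothing says that tags with different numbers came from separate cultures, so p-values over tags measure the spread between these tags, which may be technical.

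DLX1, DLX2, DLX5 and DLX6 are homeobox transcription factors of the subpallium, the ventral part of the embryonic telencephalon, where they act in the making and migration of GABAergic neurons. The medial ganglionic eminence, a region within it, uses NKX2-1 and then LHX6 and LHX8, and gives cortical interneurons of the somatostatin and parvalbumin types and striatal interneurons. The lateral eminence gives striatal projection neurons and interneurons of the olfactory bulb, and the caudal eminence gives further cortical interneurons. DLX genes are also used in parts of the diencephalon, so the rule alone does not name a region.

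The DLX genes lie in pairs (GENCODE 29 annotation of GRCh38). DLX1 lies on chromosome 2 at 172084740 to 172089677 on the plus strand and DLX2 nearby at 172099439 to 172102900 on the minus strand. DLX6 lies on chromosome 7 at 97005548 to 97011039 on the plus strand and DLX5 at 97020392 to 97024950 on the minus strand. DLX6-AS1, a long noncoding RNA, runs from 96955141 to 97014065 on the minus strand and covers all 5492 bases of DLX6. Whether strand was used in counting is not stated, so reads of DLX6 and DLX6-AS1 cannot be told apart with certainty.

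Of the 13742 cells with GAD1 or GAD2, 6126 had at least 2 DLX genes, 5475 of these had none of LHX6, LHX8 and NKX2-1, and 3631 also had no MKI67 or TOP2A. The cells were chosen by their GAD, DLX, LHX6, LHX8, NKX2-1, MKI67 and TOP2A counts, which are given as a description only. DLX6-AS1 had a count in 97.9% of DLX neurons, DLX1 in 65.6%, DLX2 in 53.7%, DLX5 in 48.6% and DLX6 in 5.84%. GAD2 was counted in 88.5% and GAD1 in 81.4%, and 2541 cells had both. Just inside the threshold stood 1731 cells with exactly 2 DLX genes, in which DLX6-AS1 reached 1275 CPM (counts scaled to a total that is equal for all cells or tags), DLX1 was found in 44.7% and DLX2 in 28.5%. Just outside stood 1997 cells that met the rest of the rule with 1 DLX gene, in which DLX6-AS1 reached 615 CPM, DLX1 was found in 3.86% and DLX2 in 5.31%. A further 34 cells were left out for a value above 0 and under 1 at LHX6, LHX8 or NKX2-1 as the highest of the 3.

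DLX neurons had a median of 11281 counts and 4115 detected genes, against 12776 counts over all cells. They held 7.80% to 8.89% of each of the 8 portions. A caller of doublets, that is, of 2 cells read as 1, marked 15.9% of them and 10.6% of all cells. The marked share was 33.7% in 2DCocu and 3.31% in 2DProto3Wu. Of 41192 cell barcodes, 2393 occurred in more than 1 portion and 0 occurred more than once in the same portion. The 26007 cells without GAD or DLX RNA, with a median of 12027 counts, served as the background for shares of cells with a count: a share at or below theirs is not read as expression. Such a share does not show absence either, since background cells are of other types, may use the gene themselves and come from the arrangements in other proportions.

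The label of GABAergic neuron held for genes the rule did not use. SLC32A1, the transporter that fills vesicles with GABA, had a count in 21.0% of DLX neurons and in 0.288% of the background cells. With every cell thinned to 3000 counts the shares were 6.39% and 0.151%. DCX, a microtubule protein of migrating neurons, was counted in 97.1% against 54.5%.

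Genes of the lateral eminence and striatal list ranged from most cells to almost none. SP8 and SP9, zinc finger factors of the lateral and caudal eminences, were counted in 21.6% and 14.2% of DLX neurons and in 4.39% and 0.319% of the background cells. MEIS2, a homeobox factor of the lateral eminence that other brain cells also use, was counted in 84.5% against 76.7%. BCL11B, a zinc finger factor of striatal neurons, was counted in 74.4% against 45.9%, and PDE10A, a striatal phosphodiesterase that other neurons also use, in 90.9% against 81.9%. EBF1, FOXP1 and FOXP2, factors of striatal neurons, were counted in 21.5%, 28.0% and 31.6%, each below the background share of 27.1%, 45.3% and 43.6%. The dopamine receptors DRD1 and DRD2 had a count in 0.275% and 3.11%, against 0.511% and 3.10% of background cells, and PPP1R1B, the striatal phosphoprotein DARPP-32, in 1.49% against 2.75%. Some genes of mature interneurons, picked from longer lists, had low shares too. The peptides SST and VIP were counted in 0.551% and 0.386% against 0.135% and 0.196%, and the calcium buffer PVALB in 0.110% against 0.1000%. The rule left out cells with LHX6, LHX8 or NKX2-1, the factors of the eminence that gives somatostatin and parvalbumin types. Nothing is therefore read from the low shares of SST and PVALB.

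Some markers of other cell types, picked from longer lists, were counted in smaller shares of DLX neurons than of background cells. The lists were not tallied here, and the background was not cleared of those cell types. TBR1, a factor of cortical excitatory neurons, was counted in 7.79% of DLX neurons against 23.6%. COL1A1, a collagen of mesenchymal cells, was counted in 17.5% against 32.3%, and GFAP, an astrocyte filament, in 2.67% against 14.1%.

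Within the 3631 cells, the share of cells with 1 lateral or caudal eminence gene varied with the presence of another, given here with no test because the shares mix arrangements and depths. PAX6, a factor of olfactory interneurons among others, was counted in 43.1% of DLX neurons with MEIS2 and 18.3% of those without. NR2F2, also called COUP-TFII and prominent in the caudal eminence, ran the other way, at 23.7% and 42.6%, although 728 of the 968 cells with NR2F2 also had MEIS2. That pair followed the arrangement too, since 45.8% of DLX neurons of 3DProto2Xia had MEIS2 and 64.4% NR2F2. Among cells with SP8, by contrast, 32.7% had NR2F2 and 25.7% PROX1, a caudal homeobox factor, against 25% and 21.7% of those without. SP8 was found in 33.7% of cells with PAX6 and 13.7% of those without, whereas ISL1, a factor of direct-pathway striatal neurons, was found in 3.70% of cells with SP8 and 9.20% of those without. EBF1 was counted in 39.9% of ISL1 cells and in 19.9% of the rest.

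Shares of DLX neurons differed widely between arrangements and between tags. They made up 777 of 6964 cells in 3DMono, 1252 of 9765 in 3DFusi, 391 of 4842 in 2DMono and 95 of 10414 in 2DCocu. In the Proto arrangements they were 553 of 2965 cells in 3DProto2Xia, 393 of 2272 in 2DProto3Wu, 89 of 2447 in 2DProto2Fjo, 57 of 2005 in 3DProto1For and 24 of 2019 in 2DProto4Nic. A share can rise because these cells gained or because others were lost.

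The order of the mean share per tag was 17.6% ± 2.56 (SD, n = 2 tags) in 2DProto3Wu, 16.4% ± 13.7 (SD, n = 3) in 3DProto2Xia, 13.1% ± 5.64 (SD, n = 10) in 3DFusi and 10.6% ± 7.20 (SD, n = 6) in 3DMono. Lower came 7.96% ± 3.38 (SD, n = 6) in 2DMono, 4.50% ± 5.06 (SD, n = 3) in 3DProto1For, 3.68% ± 0.703 (SD, n = 2) in 2DProto2Fjo, 1.15% ± 0.173 (SD, n = 2) in 2DProto4Nic and 0.894% ± 0.381 (SD, n = 12) in 2DCocu. These are shares at each cell's own depth, which differed between arrangements (median counts of DLX neurons 16446 in 2DProto3Wu and 7829 in 3DProto2Xia). With cells thinned to 3000 counts the first 2 changed places, at 9.20% in 2DProto3Wu and 10.3% in 3DProto2Xia. Neighbours from 2DProto3Wu down to 2DProto2Fjo differed by less than the larger of their SDs. Single tags set some of the means: the 3 tags of 3DProto2Xia held 22.6%, 0.686% and 25.9%, and those of 3DProto1For 2.41%, 0.823% and 10.3%.

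**Figure D1:**
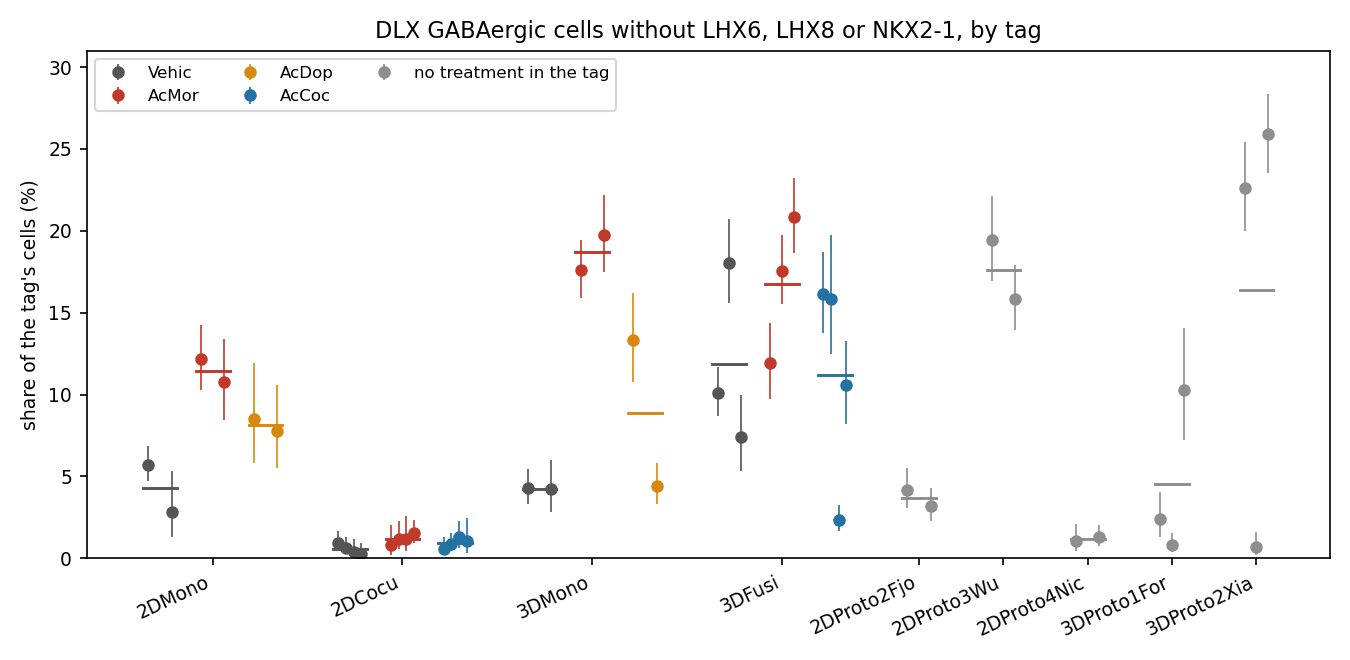
Share of cells that were DLX neurons (percent, vertical axis) in each of the 46 tags, by arrangement and treatment (the pictures call DLX neurons the class). Points are tags with 95% exact binomial intervals, which cover counting error only, and lines are group means. All 3DFusi tags lie above all 2DCocu tags, and the 2 3DMono AcMor tags lie above the 2 Vehic tags.

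The 3DFusi share exceeded the 2DCocu share by 12.4 percentage points, averaged over AcCoc, AcMor and Vehic. The 12 2DCocu tags held between 0.259% and 1.52% and the 10 3DFusi tags between 2.34% and 20.9%, so the groups did not overlap. A two-sided exact permutation test with tags exchanged within treatment gave p = 1.17e-05, the smallest it can give, and 1.17e-04 after Benjamini-Hochberg adjustment over the 10 share comparisons. With cells thinned to 3000 counts the difference was 5.99 points (exact permutation adjusted p = 2.33e-04), and with at least 3 DLX genes required 6.91 points (exact permutation adjusted p = 0.000350). With tags of the same number kept together as a block, the difference was 12.6 points and the exact permutation p 0.0286, the smallest that test can give, so it could not pass after adjustment over 10 comparisons (adjusted p 0.286). The 3DMono share exceeded that of 2DMono by 2.63 points, which was less than the spread (exact permutation p = 0.176, adjusted 0.370).

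Mean shares were higher in AcMor than in Vehic tags of each of the 4 arrangements, most in the organoids of 3DMono. There the AcMor tags held 17.6% and 19.7% and the Vehic tags 4.29% and 4.21%. The 2DMono AcMor tags held 12.2% and 10.7% against 5.72% and 2.84%. In 3DFusi the AcMor tags held 11.9%, 17.6% and 20.9% and the Vehic tags 10.1%, 18.0% and 7.39%, and these overlapped. In 2DCocu the mean was 1.18% ± 0.293 (SD, n = 4) in AcMor and 0.560% ± 0.302 (SD, n = 4) in Vehic.

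No single arrangement passed the adjusted threshold. The exact permutation p was 0.333 in 3DMono and in 2DMono, the smallest that 2 tags against 2 can give, 0.3 in 3DFusi and 0.0571 in 2DCocu, and adjusted values ran from 0.286 to 0.370. A test over the 4 arrangements, chosen after these values were seen, exchanged tags within arrangement. AcMor tags exceeded Vehic tags by 6.79 points on average over 11 tags against 11 (exact permutation p = 0.00333, adjusted 0.01 over 3 treatments). With cells thinned to 3000 counts the difference was 3.66 points (exact permutation adjusted p = 0.0170), and with called doublets removed 6.48 points (exact permutation adjusted p = 0.0175). Without 3DMono it was 4.25 points, with an exact permutation p of 0.02. Tags of the same number were not kept together as a block in this test.

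Among GAD cells alone DLX neurons made up 47.6% and 37.1% in the 3DMono AcMor tags against 26.7% and 18.8% in Vehic, and 34.6% and 29.7% against 17.1% and 10.8% in 2DMono. In 3DFusi these shares were 25.8%, 40.7% and 45.2% in AcMor tags 1, 3 and 4 against 27.2%, 46.4% and 30.2% in the Vehic tags of those numbers, and in 2DCocu 3.70% to 7.19% against 1.69% to 4.53%. On that base AcMor and Vehic overlapped in 3DFusi and 2DCocu and did not in 3DMono and 2DMono, and the difference was not tested. Among all cells AcDop tags held 13.3% and 4.42% in 3DMono and 8.52% and 7.78% in 2DMono, all above their Vehic tags. Over both arrangements the AcDop difference was 4.24 points (4 tags against 4, exact permutation p = 0.0556, the smallest possible here, adjusted 0.0833). AcCoc differed from Vehic by 0.381 points in 2DCocu (exact permutation p = 0.143) and by -0.617 in 3DFusi (exact permutation p = 0.886), and by -0.118 on average (8 tags against 7, exact permutation p = 0.953). The 4 3DFusi AcCoc tags ranged from 2.34% to 16.1%, so the spread between tags was wide.

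What the DLX neurons expressed depended on the arrangement. Of 14586 genes, 4131 (28.3%) differed between the 6 arrangements with at least 2 tags of 20 or more DLX neurons (27 tags, edgeR's quasi-likelihood test with Benjamini-Hochberg adjustment). This test was added after values had been seen. By list, 18 of 19 lateral eminence and striatal genes, 8 of 10 caudal eminence genes, 6 of 10 medial eminence genes outside the rule and 6 of 7 olfactory interneuron genes differed. Of the young neuron genes 11 of 12 differed, of immediate early genes 11 of 14, and of mitochondrial and heat shock genes 0 of 9. So did 7 of 8 diencephalic, 3 of 4 midbrain and hindbrain, 11 of 18 synapse and 8 of 12 GABA receptor genes. Of the progenitor genes and of the genes of GABA machinery outside the rule 4 of 8 each differed. Of cycling genes 0 of 4 differed, in cells that had been chosen for counts of 0 at MKI67 and TOP2A. Markers of other cells differed as well: 6 of 6 mesenchymal, 6 of 9 excitatory, 4 of 6 astrocyte and radial glia genes and 1 of 3 choroid genes. The part of other cells' RNA in the differences between arrangements was not tested. Over all arrangements EBF1, FOXP1, FOXP2, NR2F1, RELN and OTX2 were counted in no larger a share of DLX neurons than of background cells, so their levels are given as counts and not read as expression. Adjusted p-values in the next 4 paragraphs are from this edgeR test, and levels are means of plain CPM over tags.

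MEIS2 and PAX6 split the arrangements in different ways. MEIS2 stood at 2662 CPM ± 433 (SD, n = 6) in 3DMono, 2628 ± 724 (SD, n = 10) in 3DFusi and 2192 ± 373 (SD, n = 5) in 2DMono, at 882 in 2DProto2Fjo, 336 in 3DProto2Xia and 237 in 2DProto3Wu (n = 2 each, edgeR adjusted p = 1.29e-10). PAX6 was highest in 2DProto2Fjo at 334 CPM ± 48.3 (SD, n = 2), stood at 152 in 2DMono, 92.8 in 3DMono and 72.3 in 3DFusi, and was lowest in 2DProto3Wu at 6.12 (edgeR adjusted p = 2.48e-11). FOXP2, a forkhead factor, ran from 279 CPM in 2DMono, 261 in 3DMono and 245 in 3DFusi to 34.7 in 3DProto2Xia and 9.14 in 2DProto3Wu (edgeR adjusted p = 9.13e-09). Both MEIS2 and FOXP2 were lowest in the pair of 2DProto3Wu tags.

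Of the 8 caudal eminence genes that differed, NR2F1, NR2F2, PROX1 and NPAS3 had their highest mean level in 3DProto2Xia, ADARB2 and SCGN in 2DMono, and RELN and CALB2 in 2DProto2Fjo. NR2F2 stood at 153 CPM ± 43.1 (SD, n = 2) in 3DProto2Xia, at 39.0 in 3DFusi, 29.2 in 3DMono, 5.37 in 2DMono and 2.54 in 2DProto3Wu (edgeR adjusted p = 1.57e-05), and 64.4% of the 3DProto2Xia cells had a count. Its paralog NR2F1 stood at 73.2 CPM against 33.8 in 3DFusi and 0.648 in 2DProto3Wu (edgeR adjusted p = 2.17e-05). PROX1, a homeobox factor kept by caudal interneurons, was at 91.9 CPM in 3DProto2Xia, 44.3 in 2DMono and 5.87 in 2DProto3Wu (edgeR adjusted p = 1.42e-04). ERBB4, a neuregulin receptor of interneurons on the medial eminence list, was at 4948 CPM in 3DProto2Xia and 4377 in 2DMono, and between 506 and 980 in the other 4 (edgeR adjusted p = 9.43e-05).

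2DProto3Wu had a different set of factors. SIX3, a homeobox factor of the anterior forebrain and of striatopallidal neurons, stood at 64.0 CPM ± 5.45 (SD, n = 2) there, at 24.3 in 2DProto2Fjo, 22.7 in 3DFusi, 16.4 in 3DMono and 1.86 in 2DMono (edgeR adjusted p = 4.77e-06). ISL1 stood at 20.8 CPM, and was at 0 in every 2DMono tag but was also counted in 3DMono (edgeR adjusted p = 3.10e-04). HMX3, a hypothalamic homeobox factor, was at 13.2 CPM against at most 1.42 elsewhere (edgeR adjusted p = 2.19e-05). PAX7 and OTX2, factors of the diencephalon and midbrain among other places, were at 29.7 and 30.5 CPM (edgeR adjusted p = 4.10e-04 and 0.0161). The OTX2 level is given as counts and not read as expression, as said above. MEIS2 and PAX6 thus had their lowest levels, and HMX3, PAX7 and OTX2 their highest, in the 2 tags of that arrangement.

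2DProto2Fjo had the highest mean levels of RELN, the secreted protein of some interneurons and of Cajal-Retzius cells, and of OPRM1, the mu opioid receptor that morphine binds. RELN was at 545 CPM ± 18.6 (SD, n = 2) there and at means between 15.8 and 105 in the other 5 (edgeR adjusted p = 0.0370). The 3DFusi mean of 105 CPM ± 180 (SD, n = 10) held 1 tag, AcCoc 3, at 607, above both 2DProto2Fjo tags. OPRM1 was at 106 CPM ± 20.4 (SD, n = 2), 21.8 in 3DFusi and between 4.25 and 9.42 in the others (edgeR adjusted p = 2.44e-06). In all, 7.85% of DLX neurons had an OPRM1 count, against 4.46% of background cells. With cells thinned to 3000 counts the shares were 1.91% and 2.05%, so over all arrangements the receptor was not above background at equal depth. SLC32A1 ranged from 12.4 CPM in 2DMono to 23.5 in 3DProto2Xia and did not pass (edgeR adjusted p = 0.483).

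**Figure D2:**
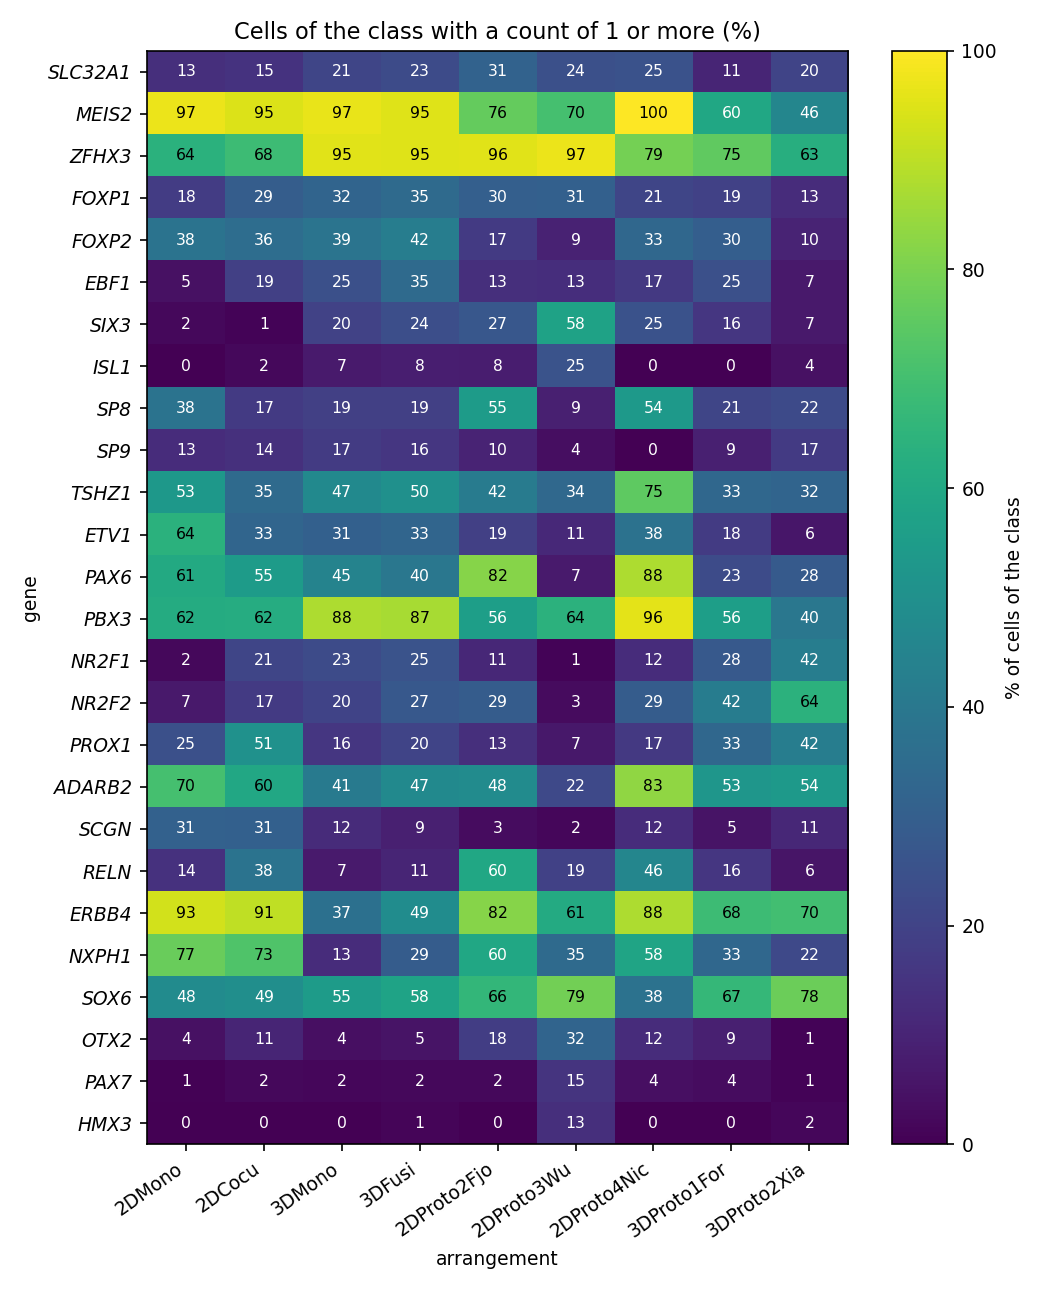
Percent of DLX neurons with a count of 1 or more (colour scale) for 26 genes (rows) in 9 arrangements (columns), at each cell's own depth. SIX3 reads 57.5% in 2DProto3Wu and 2.05% in 2DMono, NR2F2 64.4% in 3DProto2Xia and 3.05% in 2DProto3Wu, and PAX6 82.0% in 2DProto2Fjo and 7.38% in 2DProto3Wu.

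3DMono, grown as organoids, and 2DMono, grown flat, were compared directly. Each format is a single arrangement here, so format cannot be told apart from anything else that differed between them. For this and the following comparisons the counts of DLX neurons were summed per tag and scaled to CPM with TMM factors, which correct for differences in composition. Fewer transcripts of a gene in such a sum can mean fewer cells that express it or less RNA in each, and these cannot be told apart. The 5 2DMono tags with at least 20 DLX neurons entered with all 6 3DMono tags. The sixth 2DMono tag, Vehic 2, held 9 such cells and was left out.

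Among the genes that were lower in DLX neurons of 3DMono than of 2DMono were NXPH1 and ERBB4, and among those higher DACH1, EBF1 and ZFHX3. Over the other arrangements ERBB4 did not follow the format, with its highest mean in 3DProto2Xia. SIX3, called below, was higher in 2DProto3Wu than in 3DMono. NXPH1, a secreted neurexin ligand of interneurons, read 2851, 1729, 2029, 2289 and 1975 CPM in the 2DMono tags (AcDop 1 and 2, AcMor 1 and 2, Vehic 1). In the 3DMono tags its lowest, median and highest levels were 18.6, 101 and 153. Every 3DMono tag lay below every 2DMono tag, and the log2 fold change was -4.74 ± 0.49 (SE, edgeR adjusted p = 3.02e-04). ERBB4 read 5567, 4103, 4972, 4596 and 3224 in 2DMono against 274, 387 and 1093 (lowest, median, highest) in 3DMono, again without overlap (-3.33 ± 0.34, edgeR adjusted p = 1.07e-04).

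DACH1, a transcription cofactor, moved the other way: 41.1, 47.8, 71.9, 28.5 and 32.2 CPM in 2DMono against 338, 456 and 614 in 3DMono (log2 fold change 3.36 ± 0.22 SE, edgeR adjusted p = 3.74e-08). EBF1 read 0, 9.20, 15.5, 2.03 and 5.71 against 23.0, 134 and 263 (4.27 ± 0.49, edgeR adjusted p = 1.73e-04). ZFHX3, a zinc finger homeobox factor, read 181, 191, 227, 209 and 227 against 429, 817 and 1113. None of these 3 genes overlapped between 2DMono and 3DMono.

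Over all genes 513 (4.06%) were higher and 989 (7.82%) lower in 3DMono out of 12641, 11.9% in all, and 7.94% of genes did not overlap between the groups. Where a list had few calls, nothing is read from their number, and the genes are given as single values. With library size alone as the scale, 790 were higher, and the share of calls that were higher rose from 34.2% to 48.3%. The lateral eminence and striatal list had 6 of 16 genes higher and 2 lower, with a median log2 fold change of 0.01 against 0.04 over all genes. EBF1, FOXP1, ISL1, MEIS1, SIX3 and ZFHX3 rose, of which EBF1 and FOXP1 were below the background share over all arrangements. ISL1 was at 0 in all 5 2DMono tags and reached up to 16.6 CPM in 3DMono, and SIX3 read at most 4.07 CPM against 6.63 to 25.8. ARPP21, a striatal phosphoprotein, and TAC1, the substance P precursor, fell.

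The caudal list split. NR2F1 (log2 fold change 3.21 ± 0.48 SE), which was at the background share over all arrangements, and NR2F2 (2.17 ± 0.44) rose in 3DMono, while ADARB2, a caudal interneuron gene, and SCGN, the calcium buffer secretagogin, fell (edgeR adjusted p between 5.26e-06 and 0.0250). ADARB2 read 1329, 1762, 1636, 2002 and 1483 CPM in 2DMono and 285, 481 and 726 (lowest, median, highest) in 3DMono. Of 6 medial eminence genes outside the rule, ERBB4, NXPH1 and NOS1 fell and 0 rose. ETV1 and PAX6 fell among the 6 olfactory genes.

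The synapse list had 6 of 17 genes lower and 0 higher (median -0.32). Among them were KCNC2, a fast potassium channel of interneurons, the vesicle proteins SYT1 and SNAP25, the glutamate receptor subunit GRIN2A and the chloride importer SLC12A2. KCNC2 read 98.7 to 167 CPM in 2DMono and 2.42 to 56.3 in 3DMono (-3.46 on the log2 scale). GABRG3 and GABBR2, GABA receptor subunits, fell among 11, and 0 rose. With 11.9% called over all genes, nothing is read from that number.

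Of 8 progenitor genes 3 were higher in 3DMono, among them the Notch ligands DLL1 and DLL3, and 0 lower. SOX4, SOX11, CD24 and TUBB3 were higher among 12 young neuron genes, and the guidance receptors NRP2 and ROBO2 were lower. JUN and JUND rose and FOSL2 and NR4A1 fell among 11 immediate early genes.

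The genes with the largest changes by the naming rule held several with little known of their role in neurons. Higher in 3DMono were KLHL14, LCN9, CLEC2A, KLRF2, PWRN4, ONECUT1, NTNG2, TTR, EBF1 and DACH1. PWRN4, a noncoding RNA, had a median of 174 CPM against 10.2, and ONECUT1, a cut homeobox factor, 12.7 against 0.672. Lower were NXPH1, GFAP, LINC01151, ZNF248, LSP1P4, GADL1, PLPP4, HR, SMILR and ZNF680. GADL1 was at 0 in all 6 organoid tags and read 4.11 to 30.5 CPM in the flat ones.

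Several of the changed genes mark other cell types. GFAP, the astrocyte filament, read 4.07, 8.23 and 34.6 CPM (lowest, median, highest) in 2DMono, and was at 0 in 4 of the 6 3DMono tags and at most 1.67 in the others (log2 fold change -4.55 ± 0.61 SE, edgeR adjusted p = 7.51e-05). ALDH1L1, another astrocyte gene, was lower too (-4.87), and PTPRZ1 of radial glia higher (0.52), out of 5 glial genes. Of 8 excitatory genes the vesicular glutamate transporters SLC17A6 and SLC17A7 were called, with SLC17A6 lower (-1.73) and SLC17A7 higher (1.74).

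TTR, a protein of the choroid plexus, read 0 to 0.672 CPM in 2DMono and 1.37 to 243 in 3DMono. The summed level of the choroid plexus and ciliated list was 19.6, 32.04 and 116 CPM (lowest, median, highest) in 2DMono and 13.8, 191 and 1553 in 3DMono. Mesenchymal genes summed to 24.8, 157 and 254 against 31.02, 83.8 and 554, with COL3A1 higher out of 4. The glial list summed to 253, 487 and 611 against 479, 603 and 876, and the excitatory list to 54.9, 136 and 175 against 59.2, 162 and 227. The part of other cells' RNA in these differences was not tested.

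The vesicular GABA transporter did not pass between 2DMono and 3DMono. SLC32A1 read 4.11, 12.8 and 22.1 CPM (lowest, median, highest) in 2DMono and 6.63, 16.9 and 20.2 in 3DMono (log2 fold change 0.15 ± 0.33 SE, edgeR adjusted p = 0.836). MEIS2 differed by 0.24 on the log2 scale (edgeR adjusted p = 0.296). ABAT, which degrades GABA, was lower in 3DMono (edgeR adjusted p = 0.00483).

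**Figure D3:**
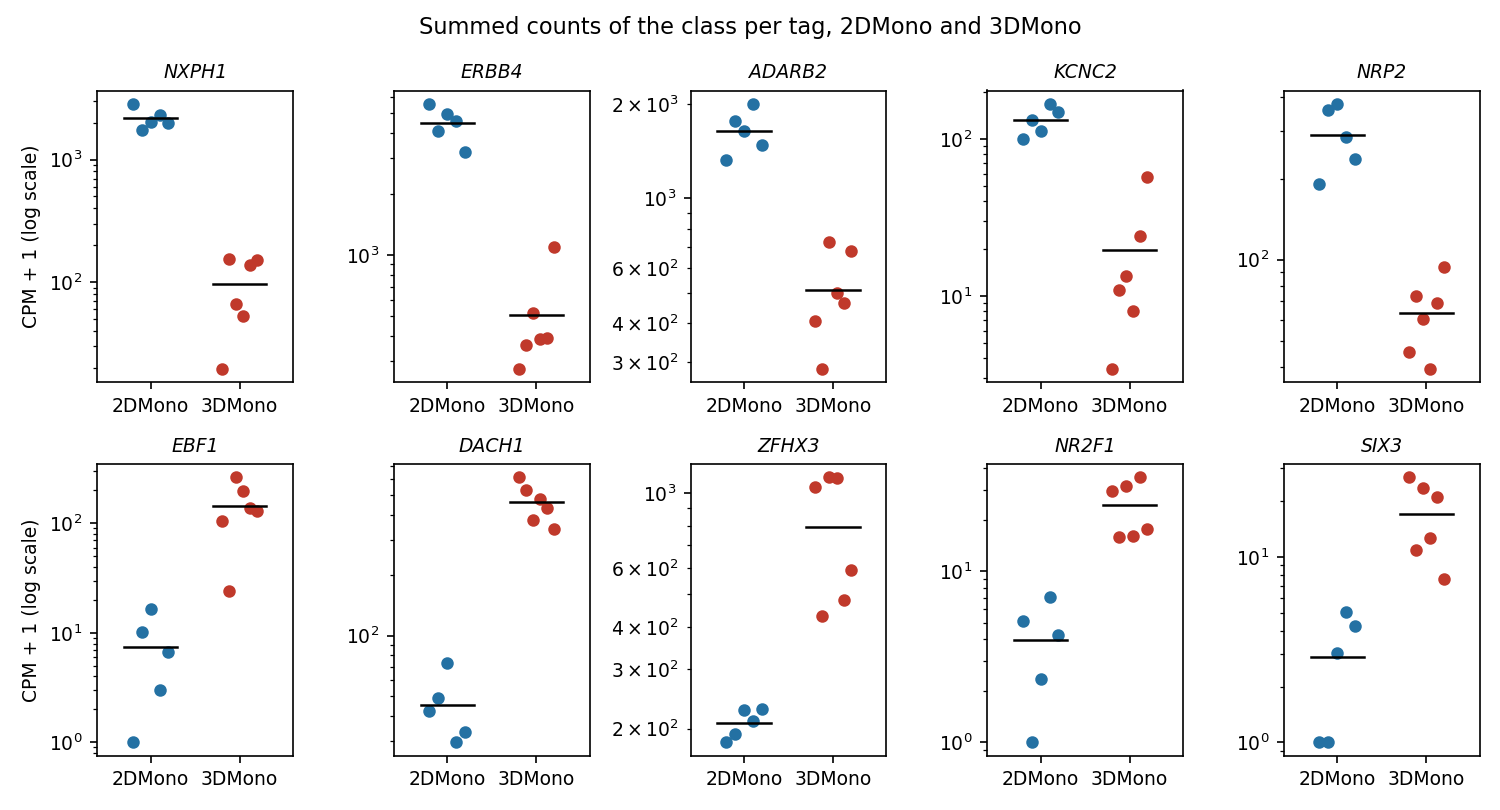
Summed counts of DLX neurons per tag for 10 genes in 2DMono (5 tags) and 3DMono (6 tags). The vertical axis is TMM-scaled CPM + 1 on a log scale, points are tags and lines are means. NXPH1, ERBB4, ADARB2, KCNC2 and NRP2 lie lower in every 3DMono tag than in any 2DMono tag, and EBF1, DACH1, ZFHX3, NR2F1 and SIX3 higher.

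Between 3DFusi and 3DMono, both organoids, few genes were called in these cells. On simulated counts this fit found 50% of 2-fold changes, so few calls do not show that the cells were alike. Out of 14589 genes 9 (0.0617%) were higher and 0 lower in 3DFusi by edgeR's quasi-likelihood test, which compared the treatments both have, AcMor and Vehic (6 tags against 4). CNTN5, an adhesion protein, read 173 to 330 CPM in 3DFusi and 89.8 to 109 in 3DMono (log2 fold change 1.23 ± 0.15 SE, edgeR adjusted p = 0.00505). TTC6, HOXB-AS3 and GRIN2A also rose without overlap, which held for 1.38% of all genes (edgeR adjusted p = 0.0377 each). TTC6 stood at 114 CPM ± 77.0 (SD, n = 6) against 5.80 ± 2.16 (SD, n = 4), and GRIN2A at 72.6 ± 17.4 against 25.4 ± 10.9. These calls were lost when called doublets were removed or cells were thinned (0 genes higher in each), and DESeq2 made 66 calls. With the tag number as a block 4 genes were called, of which 1 was among the 9. Leaving out 1 tag at a time gave 2 to 14 genes higher.

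Only 1 of the 2DCocu tags held 20 DLX neurons, so they were compared with 3DFusi at a lower minimum of 10 per tag (10 tags against 4). The 4 2DCocu tags held 11, 11, 21 and 11 DLX neurons (AcCoc 2 and 3, AcMor 4, Vehic 1), so low levels there rest on few counts. By edgeR's quasi-likelihood test 224 of 10487 genes (2.14%) were higher in 3DFusi and 440 (4.2%) lower, 6.33% in all. Of 124 genes of the lists 9 were higher and 7 lower. The factors SIX3 (log2 fold change 4.07), ZFHX3 (1.701), TSHZ1 (0.96) and SOX4 (2.46) were higher, as were CD24 (2.43) and ROBO1 (0.86) of young neurons. The immediate early genes JUN (3.61), NPAS4 (2.82) and FOS (2.66) were higher too, with FOS at 76.0 CPM ± 40.8 (SD, n = 10) in 3DFusi and 12.4 ± 5.59 (SD, n = 4) in 2DCocu. Lower were PAX6 (-1.36), PROX1 (-1.84), ERBB4 (-2.41), SCGN (-1.83), ROBO2 (-0.78), RBFOX3 (-0.91) and SLC6A11 (-2.33). Called doublets made up 27.3%, 18.2%, 28.6% and 45.5% of the DLX neurons in the 4 2DCocu tags (AcCoc 2 and 3, AcMor 4, Vehic 1). They made up 33.7% over all 2DCocu tags and 21.7% over those of 3DFusi. Their part in this comparison was not tested.

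No gene passed the threshold for a treatment within DLX neurons, in fits with few tags. These were 2 tags against 2 in 3DMono, and 4 AcCoc or 3 AcMor tags against 3 Vehic tags in 3DFusi. On simulated counts the fits found 10% (3DMono AcMor), 5% (3DMono AcDop), 26% (3DFusi AcCoc) and 16% (3DFusi AcMor) of 2-fold changes. Changes of that size can thus have been missed. In 3DMono edgeR's quasi-likelihood test called 0 of 11938 genes (0%) for AcMor and 0 (0%) for AcDop against Vehic, while 709 and 569 had an unadjusted p under 0.05 and DESeq2 called 18 and 4. In 3DFusi edgeR called 0 of 13503 (0%) for AcCoc and 0 (0%) for AcMor, while 390 and 157 had an unadjusted p under 0.05 and DESeq2 called 5 and 0. The Vehic tags are shared between treatments of an arrangement. Treatments were not tested against Vehic in 2DMono, where 1 Vehic tag held 20 DLX neurons, nor in 2DCocu, where 1 tag in all did, since 2 tags per group were required.

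Levels in 3DMono still differed between some tags. EGR1, an immediate early factor, read 152 and 129 CPM in AcMor, 154 and 183 in AcDop and 93.2 and 21.0 in Vehic (edgeR adjusted p = 0.810 and 0.987). SLC32A1 read 19.5 and 18.1 in AcMor, 20.8 and 17.1 in AcDop and 8.76 and 6.99 in Vehic (edgeR adjusted p = 0.810 and 0.999). Neither gene overlapped between treated and Vehic tags, where 32.7% of all genes tested did not overlap for AcMor and 32.5% for AcDop. In 3DFusi 3.79% did not overlap for AcCoc and 6.97% for AcMor. FOS read 56.8 and 34.1 in AcMor against 45.4 and 10.5 in Vehic.

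DLX neurons were next compared, within the same tag, with 3555 GAD cells that had no DLX RNA, MKI67 or TOP2A and a median of 14266 counts. The 28 tags with at least 20 cells of both kinds entered, with the tag as a block. Of 15963 genes, 3052 (19.1%) were higher and 3529 (22.1%) lower in DLX neurons, 41.2% in all (edgeR's quasi-likelihood test). In 1.68% of genes the sign was the same in every tag.

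Among the genes that were higher in DLX neurons were NRXN3, SP9 and SLC32A1. NRXN3, a presynaptic neurexin, had a lowest, median and highest level of 7289, 11225 and 19451 CPM in DLX neurons and 363, 962 and 2477 in the others (log2 fold change 3.63 ± 0.14 SE, edgeR adjusted p = 9.50e-20). SP9 read 2.30, 13.8 and 47.2 against 0, 0 and 7.15 (4.56 ± 0.33, edgeR adjusted p = 3.26e-13). SLC32A1, higher in 27 of 28 tags, read 4.09, 16.6 and 28.6 against 0, 1.09 and 6.11 (3.27 ± 0.23, edgeR adjusted p = 3.17e-13). The GAD cells without DLX thus had GAD RNA by their definition and little of the vesicular transporter.

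METAP1D, a mitochondrial methionine aminopeptidase, was higher in 28 of 28 tags. It read 88.2, 175 and 314 CPM against 7.15, 16.3 and 42.9 (log2 fold change 3.24 ± 0.14 SE, edgeR adjusted p = 1.77e-17). The gene lies on chromosome 2 at 171999583 to 172082430 on the plus strand and ends 2309 bases before DLX1 on the same strand. Reads that run on from or into the neighbouring gene were not tested.

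Among the lists, 10 of 12 young neuron genes were higher and 0 lower, with a median log2 fold change of 1.03 against -0.02 over all genes. SOX4, SOX11 and DCX were higher in every tag, DCX at a median of 715 CPM against 230. Of 20 lateral eminence and striatal genes 9 were higher and 3 lower (median 0.53). MEIS2 had a median of 2250 CPM against 537, and BCL11B 269 against 117, while FOXP1 fell, at 69.9 against 127. EBF1, FOXP2 and SIX3 did not pass (edgeR adjusted p = 0.946, 0.472 and 0.381).

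Olfactory interneuron genes were higher in 4 of 7 and lower in 1. PAX6 was higher in 28 of 28 tags (86.1 CPM against 40.2 at the median), and PBX3 in 24 and TSHZ1 in 26 of 28. Of 10 caudal genes 3 were higher and 1 lower, a share near the 41.2% called over all genes. Nothing is read from that number, and single values are given. SCGN had a median of 16.9 CPM against 0 and ADARB2 648 against 186, while NR2F2 and PROX1 did not pass (edgeR adjusted p = 0.194 and 0.109). Of 8 genes of GABA machinery 5 were higher and 1 lower.

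Lists of other regions and other cell types had more genes lower than higher in DLX neurons. Of 8 midbrain and hindbrain genes 7 were lower and 0 higher (median -1.73), among them PAX2 (12.0 CPM against 3.32 in DLX neurons at the median), OTX2 (30.3 against 5.81) and SLC6A5, the glycine transporter. Of 10 diencephalic genes 5 were lower, LHX1 and LHX5 among them, and 1 higher. Lists of other cells were lower in 7 of 11 excitatory, 6 of 7 glial, 5 of 7 mesenchymal and 5 of 5 choroid genes, with 0 higher in each. The median summed level was 467 CPM in DLX neurons and 981 in the others for the glial list, and 125 and 489 for the mesenchymal list. It was 58.0 and 290 for the choroid plexus and ciliated list and 90.3 and 147 for the excitatory list. The part of other cells' RNA in the differences of this comparison was not tested. YAP1, a growth regulator of progenitors and glia, and CLU, a secreted chaperone of astrocytes, were lower in 28 of 28 tags (log2 fold changes -1.82 and -1.75).

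Immediate early genes were lower in 9 of 15. FOS had a median of 32.5 CPM in DLX neurons and 81.2 in the others and EGR1 102 against 145. NPAS4, a factor induced by calcium entry in neurons, was the 1 that was higher, at 27.3 against 10.1 (log2 fold change 1.18 ± 0.24 SE, edgeR adjusted p = 2.33e-04). Of 9 mitochondrial and heat shock genes 5 were lower and 0 higher, and the part of RNA quality in these differences was not tested. The share of calls that were higher depended on the scale: 46.4% of calls were higher here, and 36.4% by DESeq2.

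**Figure D4:**
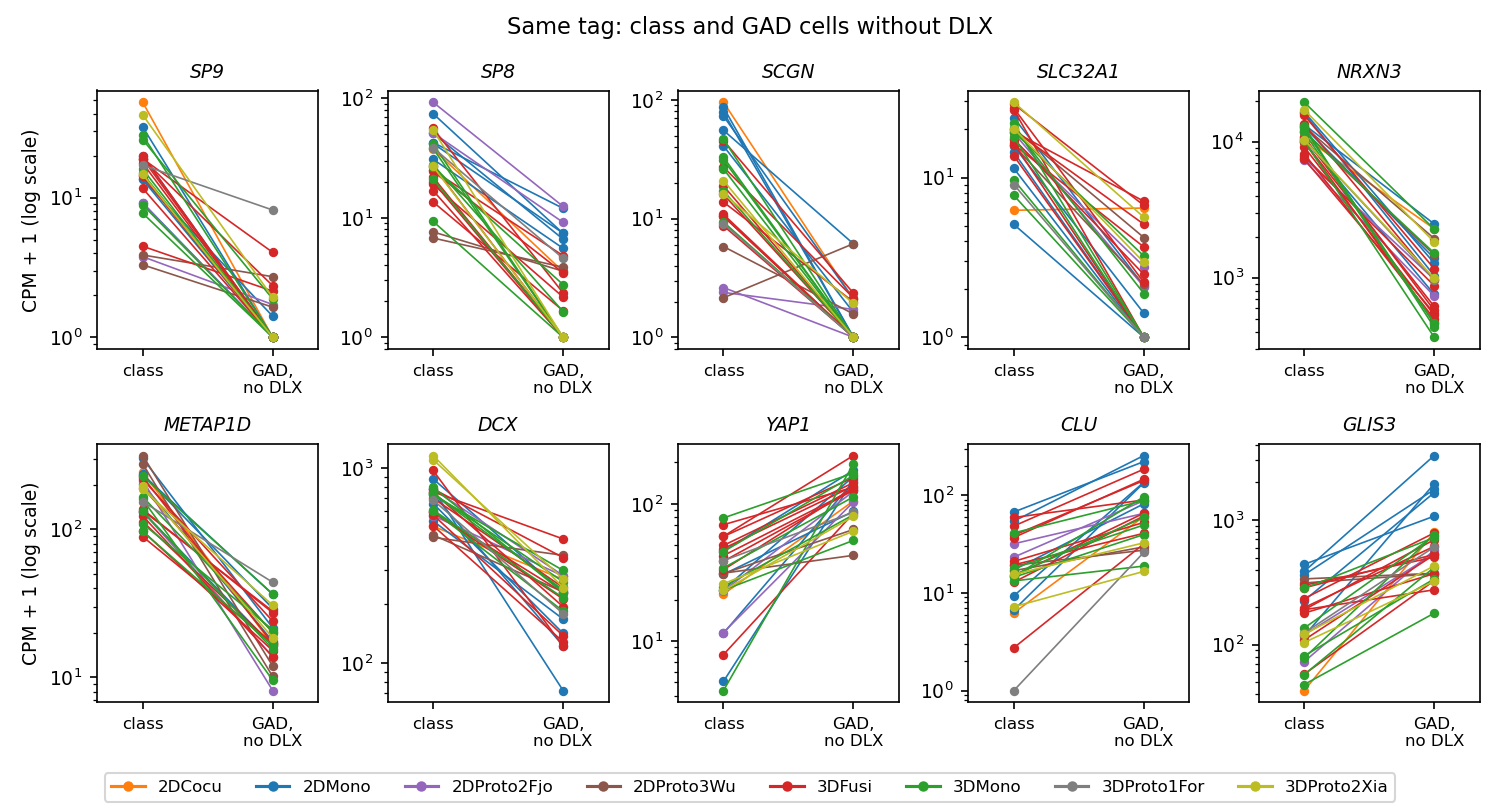
Summed counts per tag (TMM-scaled CPM + 1, log scale) of DLX neurons and of GAD cells without DLX RNA for 10 genes, with a line joining the 2 values of each of the 28 tags. SP9, SP8, SCGN, SLC32A1, NRXN3, METAP1D and DCX fall from left to right in nearly all tags, and YAP1, CLU and GLIS3 rise in every tag.

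DLX neurons were also compared with 476 cells that had LHX6, LHX8 or NKX2-1 and otherwise met the same rule. Those cells had a median of 17790 counts, against 11281 in DLX neurons. At lower depth a count of 0 can be RNA that was missed, so DLX neurons may include such cells, which was not tested. Of the 476 cells, 329 were in 2DProto3Wu, which held 393 DLX neurons. Both kinds reached 20 cells in 3 tags: 2DProto3Wu 1 and 2 and 3DProto2Xia 3. Of 16924 genes 58 (0.343%) were higher and 51 (0.301%) lower in the cells without those factors, 0.644% in all (edgeR's quasi-likelihood test with the tag as a block). The counts rest on single tags: they were 8 in all without 2DProto3Wu 1, 0 without 2DProto3Wu 2 and 860 without 3DProto2Xia 3. Without the tag as a block 0 genes were called in each direction.

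Lower in the cells without LHX6, LHX8 and NKX2-1 were ROBO3, FIGN and GBX1, among others. ROBO3, an axon guidance receptor, read 19.3, 9.67 and 2.78 CPM in the 3 tags against 128, 76.1 and 6.75 (log2 fold change -2.69 ± 0.22 SE, edgeR adjusted p = 0.00398). FIGN, a microtubule-severing enzyme, read 13.8, 26.8 and 32.7 against 106, 122 and 85.5 (-2.14). GBX1, a homeobox factor of ventral forebrain neurons, read 12.1, 9.43 and 5.57 against 39.7, 52.4 and 9.75 (-1.88 ± 0.27, edgeR adjusted p = 0.0259). All 3 were lower in each tag, which held for 1 direction or the other in 32.6% of all genes.

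Calls among the listed genes were few, as they were over all genes (0.644%), and nothing is read from their number. Of 11 medial eminence genes outside the rule, CRABP1, a retinoic acid binding protein, was lower and 0 were higher. SOX6, which acts after LHX6 in the medial eminence, read 606, 826 and 970 CPM against 942, 1085 and 1193 (-0.44 ± 0.09, edgeR adjusted p = 0.0707). SLC32A1 read 19.3, 15.0 and 29.1 against 19.5, 15.5 and 34.5. Of 16 lateral eminence genes, 10 caudal genes and 6 olfactory genes 0 were called. MEIS2 read 185, 291 and 348 against 87.7, 150 and 326 (edgeR adjusted p = 0.266).

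Among the genes higher in the cells without those factors were SMOC1, COL1A2, COL5A1, SPARC, PCSK1, MMP14 and MSN. SMOC1, a secreted matrix protein, read 155, 188 and 346 CPM against 56.6, 59.9 and 101 (1.63 ± 0.10, edgeR adjusted p = 0.00153). COL1A2, a collagen, read 118, 174 and 5.06 against 6.74, 9.14 and 3.00 (4.04 ± 0.34, edgeR adjusted p = 0.00854), and SPARC, a matrix protein, 47.5, 82.4 and 7.59 against 13.1, 11.4 and 5.25. PCSK1, a prohormone convertase, read 27.9, 47.6 and 1.77 against 6.37, 11.2 and 0.750.

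COL1A2 is also on the list of mesenchymal markers, where it was the 1 gene called out of 3 tested. COL1A1 of that list read 156, 206 and 6.08 CPM against 6.74, 4.14 and 4.50 (edgeR adjusted p = 0.145). The summed list, COL1A2 included, was 18.6, 282 and 391.9 CPM (lowest, median, highest) in these cells and 11.5, 16.9 and 18.1 in those with the factors, with none of its genes at 0. The part of mesenchymal RNA in the differences was not tested. PAX2 read 35.4, 14.7 and 1.27 against 7.12, 2.59 and 1.5003, a rise that held in 2 of the 3 tags (2.27 ± 0.32, edgeR adjusted p = 0.0235).

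**Figure D5:**
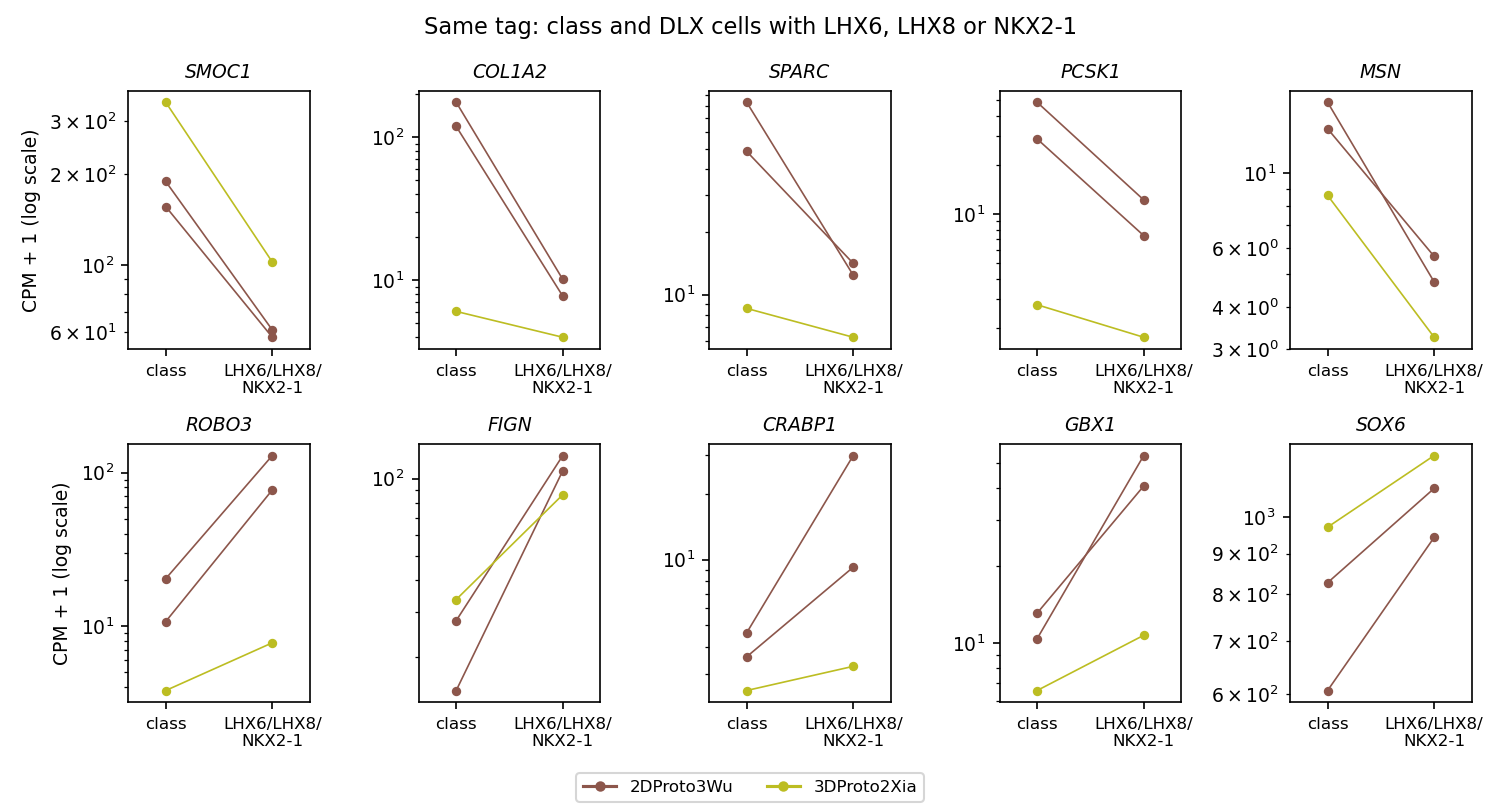
Summed counts per tag (TMM-scaled CPM + 1, log scale) of DLX neurons ("class") and of DLX cells with LHX6, LHX8 or NKX2-1, for 10 genes in 3 tags, with a line joining the 2 values of a tag. SMOC1, COL1A2, SPARC, PCSK1 and MSN are lower, and ROBO3, FIGN, CRABP1, GBX1 and SOX6 higher, in the cells with those factors in each tag.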

How the data were processed

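The deposited matrix held estimated counts for 60286 genes in 43693 cells (total 793413159, 3375 to 511102 per cell), since 54.3% of 215531617 entries are whole numbers and 13.5% lie below 1. Salmon 1.7.0, alevin, Seurat 4.1.1 and hg38 are named in the submitters' processing notes, and how reads shared by several genes were divided is not given in the sources used here. The lowest number of genes per cell was 1006 and the highest mitochondrial share 10.0%, so cells had been filtered before deposit. All columns were used. The DLX neurons, the gene lists and the tests were chosen with earlier results of these data known.

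Each cell's tag was read from its name. Doublets were scored by 100 neighbours among simulated doublets, on 2000 variable genes and 30 components. The threshold of 0.619 called 4648 cells, which were kept. Intervals are exact binomial at 95%. For tests across genes the expected counts of a tag were summed and rounded, tags needed 20 cells, and genes passed filterByExpr. Normalization was by TMM, and edgeR 4.0.16 (robust quasi-likelihood, R 4.3.3, limma 3.58.1) called genes at a Benjamini-Hochberg adjusted p of 0.05. Treatment was a covariate between formats, and all tags of an arrangement entered the treatment fits. Shares of cells were compared by exact permutation tests.

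Some genes of the lists are not reported here. Named genes were those of the lists, and the 10 largest rises and falls among called genes with a mean of at least 10 CPM in the higher group and no overlap, or 1 direction in every tag. Alternatives were a detection limit of 0.5, at least 3 DLX genes, thinning to 3000 counts, doublets removed, other minimums of cells per tag (10 and 40), no filter, no TMM, DESeq2 1.42.0, blocks by tag number and leaving out tags. The script was tested on simulated data. Python 3.11.15, numpy 2.4.6, scipy 1.17.1, pandas 2.3.3, scikit-learn 1.9.0, scikit-image 0.26.0 and matplotlib 3.10.9 were used.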

Additional observations from a re-analysis of the deposited data

Results flagged for a closer look

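A tag far from the others was searched for by Dixon's criterion in 115 groups of 4 to 10 tags. These were 4 groups of shares and 111 of gene levels in DLX neurons. By this criterion chance marks about 1 in 20 groups of normally distributed values, which CPM from few counts need not be. The criterion marked 17, all gene levels in TMM-scaled CPM, and this number is not set against that rate.

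The 3DMono tag Vehic 2, with 29 DLX neurons, accounted for 5. It read 1093 for ERBB4 (others 274 to 518), 156 for FOXP1 (69.1 to 94.1), 1484 for SYT1 (933 to 1109), 53.0 for ONECUT1 (4.94 to 16.1) and 23.2 for SLC17A6 (1.06 to 6.12). All of ERBB4, SYT1 and SLC17A6 were lower in 3DMono than in 2DMono. This tag lay nearest to the flat cultures for ERBB4 and SYT1, and for SLC17A6 above every flat tag (8.13 to 16.5).

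The 3DMono tag Vehic 1 read 229.5 for COL3A1 (others 8.08 to 59.2) and 9.95 for LINC01151 (0 to 3.29). In 3DMono AcDop 2 both HR and ZNF680 read 3.29 (others 0 to 0.765 each), and 3DMono AcDop 1 read 38.8 for LCN9 (3.06 to 14.1). In 3DMono AcMor 1 TUBB3 read 159.6 (50.7 to 88.0) and SMILR 0.455, with the others at 0.

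Among flat cultures, 2DMono AcMor 1 read 49.8 for TUBB3 (26.4 to 31.3). The tag 2DMono Vehic 1 read 0.408 for KLHL14 and 0.815 for LCN9, with the others at 0, and 2DMono AcDop 1 read 115 for LSP1P4 (33.8 to 54.5). In 3DFusi, Vehic 4 read 263.9 for TTC6 (53.7 to 108).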

How the results depend on the processing

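All added alternatives were chosen after seeing the data. Tag numbers grouped some of the 3DFusi tags. Same-numbered tags of DLX neurons correlated between -0.0466 and 0.435 over 9 pairs in 3DFusi. The tags numbered 1 correlated at 0.321 to 0.410, above all 24 pairs of different numbers (-0.350 to 0.205), and 6 of 9 tags correlated best with their own number. The main tests did not use the number. With the number as a replicate block, the 3DFusi share exceeded 2DCocu by 12.6 points (exact permutation adjusted p = 0.286) and 4 genes were higher in 3DFusi than in 3DMono, of which 1 was among the 9 called without the block. Without any filter on low counts, against cells with LHX6, LHX8 or NKX2-1, 488 genes were higher and 307 lower, and 3DFusi against 3DMono gave 193 and 58. No filter gave 33 higher and 53 lower for 3DMono AcMor, 17 and 40 for AcDop, 15 and 52 for 3DFusi AcCoc and 2 and 2 for AcMor. By DESeq2 3DFusi against 3DMono gave 54 and 12, 3DMono AcMor 3 and 15, AcDop 1 and 3 and 3DFusi AcCoc 1 and 4. Without TMM 3DMono against 2DMono gave 790 higher, and 3DMono AcMor and AcDop 1 lower each. With doublets removed, the comparison with LHX6, LHX8 or NKX2-1 gave 126 higher and 90 lower, 3DFusi against 3DMono 0 higher, 3DMono AcMor 4 lower and AcDop 1 higher. Thinned cells gave 15 and 11 against LHX6, LHX8 or NKX2-1 cells, 924 and 1114 against GAD cells without DLX, 140 and 324 for 3DMono against 2DMono, and 0 higher for 3DFusi against 3DMono. Without the tag as a replicate block the counts were 0 and 0 against LHX6, LHX8 or NKX2-1 cells and 1843 and 2307 against GAD cells without DLX. A minimum of 10 cells gave 22 lower against LHX6, LHX8 or NKX2-1 cells, and a minimum of 40 gave 260 higher for 3DMono against 2DMono. Without the 3DFusi tags numbered 1, 26 genes were higher and 7 lower than in 3DMono. The causes of these shifts were not tested.

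Leaving out 1 tag at a time gave 0 to 479 higher and 0 to 381 lower against LHX6, LHX8 or NKX2-1 cells, 304 to 504 and 746 to 1003 for 3DMono against 2DMono, and 2 to 14 and 0 to 3 for 3DFusi against 3DMono. It gave 0 to 1 higher and 0 to 23 lower for 3DMono AcMor, 1 to 2 and 0 to 30 for AcDop and 0 for 3DFusi. It was not run over the 28 tags with GAD cells without DLX. Of 121 named genes, 2 changed sign, both against GAD cells without DLX in thinned cells: GPHN to -0.0852 (edgeR adjusted p = 0.515) and GRIA2 to -0.417 (edgeR adjusted p = 0.0921) on the log2 scale. A further 48 lost the call under at least 1 alternative. Between 3DMono and 2DMono NXPH1, ERBB4, EBF1 and DACH1 kept it in all 19. Without TMM 37.0% of calls against GAD cells without DLX were higher, against 46.4%. Depth limits genes with a few counts per tag, since a tag could hold as few as 20 DLX neurons.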

Other observations

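Against GAD cells without DLX RNA, 2 lists not described above had a share of called genes near the 41.2% of all genes (28 tags, edgeR's quasi-likelihood test with Benjamini-Hochberg adjustment), so their genes are given as single values. Of 18 synapse and maturation genes 7 were higher and 2 lower. SYT1, the calcium sensor of vesicle release, was higher in 28 of 28 tags, with a median of 1280 CPM against 814 (log2 fold change 0.79 ± 0.10 SE, edgeR adjusted p = 3.42e-08). GRIA1, an AMPA receptor subunit, had a median of 1088 CPM against 433, while GRIN2A, an NMDA receptor subunit, fell (35.1 against 90.1). Of 13 GABA receptor subunits 4 were higher and 1, GABBR2, lower (76.1 CPM against 99.3).

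Of 8 progenitor genes 3 were higher and 4 lower. The Notch ligands DLL1 and DLL3 were higher in DLX neurons, with DLL1 at a median of 28.5 CPM against 16.9 (log2 fold change 0.83 ± 0.17 SE, edgeR adjusted p = 1.14e-04). HES1, a target of Notch signalling, was lower in 27 of 28 tags (5.18 CPM against 17.6), as was VIM, vimentin of radial glia (43.3 against 117), and NES and FABP7 fell too. Of 11 medial eminence genes outside the rule 4 were higher and 3 lower. ZEB2 rose (448 CPM against 213), and MAF fell (7.97 against 24.4, lower in 24 of 28 tags).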
